A study of Mus musculus with 6 samples.

Results

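The cytosolic ribosomal protein genes examined here were the genes of the deposited transcript table named *Rpl* or *Rps* with a number, together with *Rplp0*, *Rplp1*, *Rplp2*, *Rpsa* and the numbered paralogs such as *Rpl22l1* and *Rps27l*. This name rule picked 87 of the 47729 genes listed, 53 of the large and 34 of the small subunit, with 386 transcripts. Ribosome-associated RNA was sequenced in 3 Ctrl and 3 Gsk3sKO libraries from the medial prefrontal cortex (mPFC) of adult male C57BL/6 mice, collected 3 weeks after viral injection. Ctrl mice received AAV GFP and Gsk3sKO mice received AAV Gsk3sgRNA/GFP, which carries a guide RNA against *Gsk3b*, the gene of glycogen synthase kinase 3β. Mice of both groups were D2Cre/LSL-Flag-Cas9/RiboTag, in which a bacterial artificial chromosome transgene drives Cre in dopamine D2 receptor-expressing cells, and Cre switches on both Cas9 and a hemagglutinin tag on the ribosomal protein Rpl22. The guide therefore had Cas9 to act with in D2 cells that the virus had reached, and the immunoprecipitation drew on tagged D2 cells whether infected or not. Nothing in the labels tells whether each library is 1 mouse or a pool, so p-values cover only library-to-library spread, part of which can be technical. In such bulk material, fewer cells of a type and less RNA per cell cannot be told apart.

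The cytosolic ribosome is built from ribosomal RNA and a set of proteins that sit at fixed places in each subunit. The large subunit forms peptide bonds and the small subunit reads the codons. Most ribosomal protein mRNAs belong to the TOP class, whose transcripts start with a C followed by a stretch of pyrimidines and whose translation follows the activity of mTORC1. In neurons these mRNAs are abundant and are also found in axons and dendrites. The RiboTag method pulls down ribosomes by the tag on Rpl22, so a level here is RNA found with tagged ribosomes, and it mixes how much mRNA there is with how much of it is bound.

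Start-site windows are shown first, because a pyrimidine run at the start defines the TOP class, though not every annotated start of a member held one. They come from RefSeq promoters on GRCm38.p6, which matched 64 of the 87 genes with 76 promoters. Each window holds 15 bases before and 15 bases after an annotated start, and capitals mark runs of a C followed by at least 4 bases that are C or T. The first 6 belong to genes whose total had an unadjusted limma p under 0.05 between the groups. The last 2 belong to genes whose group means differed little. In order, the windows lie at chr1:72711245-72711274 (+), chr15:5116598-5116627 (+), chrX:74270801-74270830 (+), chr4:136053379-136053408 (−), chr13:90923107-90923136 (+), chr3:90213634-90213663 (−), chr7:141447636-141447665 (+) and chr4:86857353-86857382 (−).
Rpl37a: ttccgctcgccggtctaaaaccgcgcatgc
Rpl37: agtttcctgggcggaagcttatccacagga
Rpl10: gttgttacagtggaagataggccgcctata
Rpl11: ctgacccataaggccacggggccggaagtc
Rps23: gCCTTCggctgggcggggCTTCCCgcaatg
Rps27: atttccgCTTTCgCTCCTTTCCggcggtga
Rplp2: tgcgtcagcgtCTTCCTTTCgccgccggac
Rps6: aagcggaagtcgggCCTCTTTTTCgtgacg
Of these windows, those of *Rps23*, *Rps27*, *Rplp2* and *Rps6* hold such a run near the annotated start, and those of *Rpl37a*, *Rpl37*, *Rpl10* and *Rpl11* do not. A window without the run says only that these letters are not in it, since an annotated start can lie away from the one used in these cells.

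The ribosomal protein mRNAs were among the abundant RNAs of the D2 ribosome fraction. Levels are FPKM, sequenced fragments divided by transcript length and library size, summed over the transcripts of a gene. A gene total was tested when its mean over the 6 libraries was at least 1 FPKM, and 83 of the 87 passed, 50 of the large and 33 of the small subunit. Of the 83, 79 were above 10 FPKM in every library and 32 had a Ctrl mean above 100 FPKM. Ctrl means ran from 1.49 FPKM for *Rps27l* to 431 FPKM for *Rplp1*, with a median of 84.3 FPKM (92.8 for the large and 69.4 for the small subunit genes). The other 4 genes fell below the filter. *Rpl39l* was listed at 0 in all libraries, *Rpl10l* and *Rpl3l* reached 0.0888 and 0.112 FPKM in a single Ctrl library, and *Rps12l1* did not reach the minimum either. The first 3 of these are paralogs of *Rpl39*, *Rpl10* and *Rpl3*, known from testis or from striated muscle.

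The summed levels of the subunits did not separate the groups. Large subunit genes summed to 6788, 5664 and 5427 FPKM in Ctrl replicates 1 to 3 and to 5630, 5476 and 5275 FPKM in Gsk3sKO replicates 1 to 3. The means were 5960 ± 727 and 5460 ± 178 FPKM (SD, n = 3), a ratio of 0.916. Small subunit genes summed to 3275, 2802 and 2695 FPKM in Ctrl and to 2906, 2713 and 2624 FPKM in Gsk3sKO, or 2924 ± 309 against 2748 ± 144 FPKM (SD, n = 3), a ratio of 0.940. For both subunits the groups overlapped, and Ctrl replicate 1 stood highest. Without that library the differences of −500 FPKM (large) and −176 FPKM (small), Gsk3sKO minus Ctrl, came to −85.3 and −0.25 FPKM. The members made up 3.38%, 2.94% and 2.77% of the FPKM of all protein-coding genes in Ctrl and 2.93%, 2.86% and 2.80% in Gsk3sKO, again overlapping. The balance of the subunits, as the summed FPKM of the large over the small, was 2.07, 2.02 and 2.01 in Ctrl and 1.94, 2.02 and 2.01 in Gsk3sKO.

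**Figure D1:**
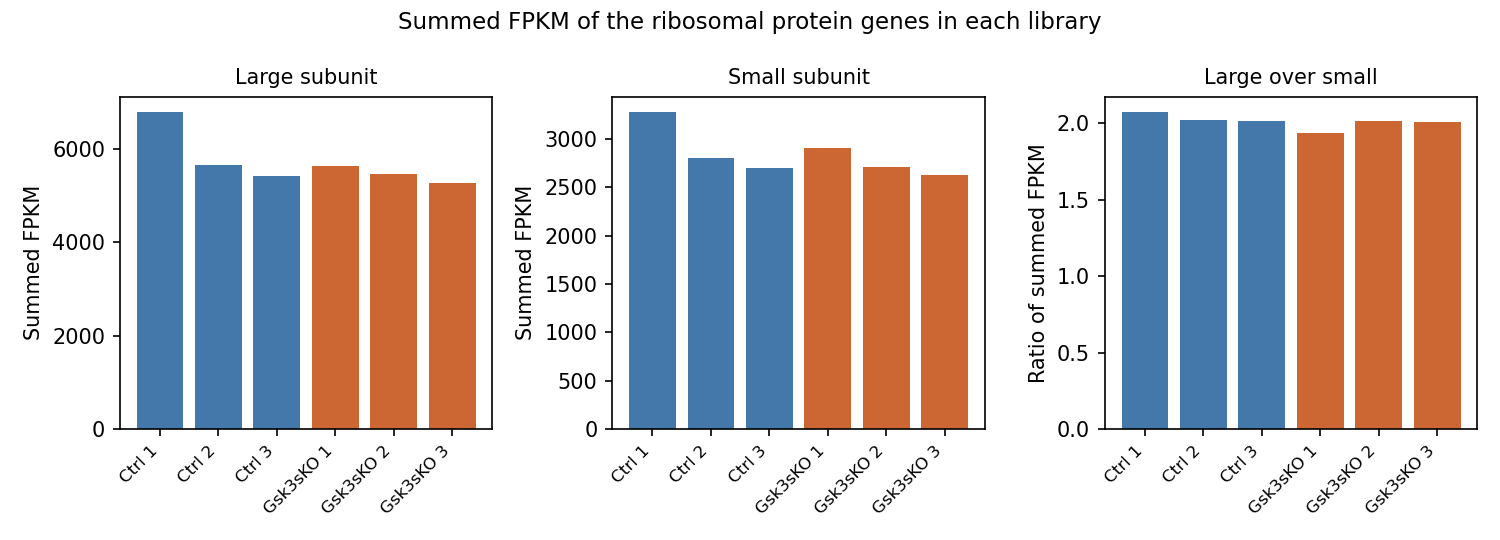
Bars give the summed FPKM of the large subunit genes, that of the small subunit genes and the ratio of the large over the small sum, for each of the 6 libraries. Ctrl replicate 1 stands highest in each panel, with 6788 FPKM for the large and 3275 FPKM for the small subunit. In the panels of the sums the other 5 libraries of both groups lie together.

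Ctrl replicate 1 stood high in the gene totals as well. It held the highest of the 6 values for 39 of the 83 tested members (47.0%), against 20.4% of all 12874 gene totals tested. Gsk3sKO replicate 3 held the lowest value for 30 members (36.1%), against 28.4% of all gene totals. Within a group the members varied about as much as other genes, with a median coefficient of variation of 13.9% in Ctrl and 14.9% in Gsk3sKO, beside 14.0% and 15.1% over the 5852 genes with a mean of at least 10 FPKM.

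On the log2(FPKM + 1) scale, 58 of the 83 members (69.9%) had a lower mean in Gsk3sKO, beside 58.9% of all gene totals. With libraries rescaled to the median ratio of gene totals it was 48, and without Ctrl replicate 1 it was 47. The median log2 difference was −0.15 for the large and −0.11 for the small subunit genes, beside −0.06 over all gene totals, and 38 members lay within 0.2 of no change. Tested with limma, 8 of the 83 members (9.64%) had an unadjusted p under 0.05, 7 of them lower (8.43%) and 1 higher (1.2%) in Gsk3sKO. Of all gene totals 6.56% passed the same threshold, 5.2% lower and 1.36% higher, so the members' share was near that of the background. None passed after Benjamini-Hochberg adjustment, beside 0.0466% of all gene totals, and the smallest adjusted limma p of a member was 0.426. The count hung on single libraries. Leaving out Ctrl replicate 2 gave 5 members (beside 4.46% of all gene totals) and leaving out Ctrl replicate 3 gave 16 (7.12%). It was 15 (9.13%) with Gsk3sKO replicate 1 left out and 4 (5.11%) with Gsk3sKO replicate 3 left out. The lower and higher calls were 7 and 1 as deposited, 3 and 1 with the median ratio (4.82% of members beside 6.24% of all gene totals), and 6 and 2 with libraries rescaled to the same FPKM of protein-coding genes (9.64% beside 6.29%). By the simpler measure of groups that do not overlap, 9 members (10.8%) were apart beside 12% of all gene totals, 7 lower (8.43%, beside 8.3%) and 2 higher (2.41%, beside 3.71%).

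**Figure D2:**
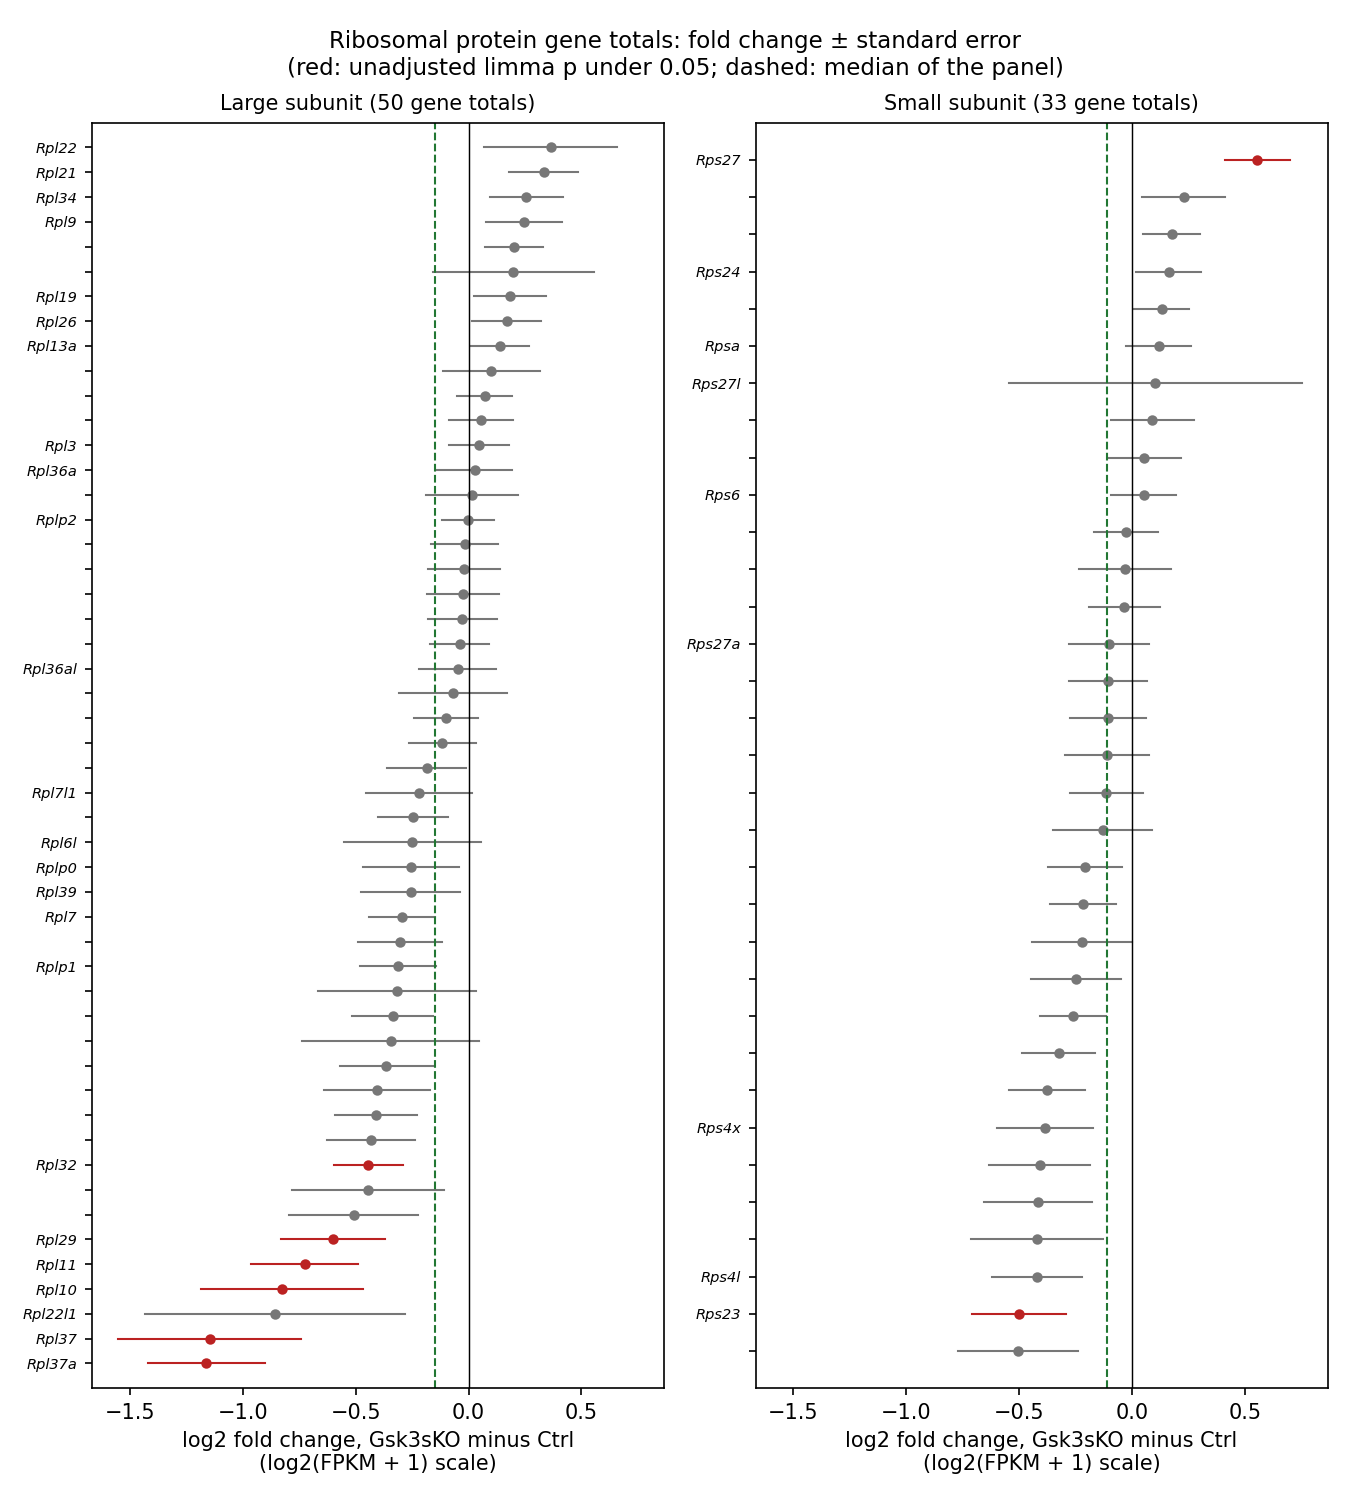
Each point is the log2 difference (Gsk3sKO minus Ctrl, log2(FPKM + 1) scale) of a gene total with its standard error, for the 50 large subunit genes and the 33 small subunit genes tested, sorted within each panel, with names for those described in the text. Red points have an unadjusted limma p under 0.05 (6 large and 2 small), and the dashed lines at −0.15 and −0.11 are the panel medians.

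Among the large subunit genes, 6 were lower in Gsk3sKO by the unadjusted test and 0 were higher. *Rpl37a* and *Rpl37* encode zinc-binding proteins of the large subunit. *Rpl37a* (ENSMUSG00000046330, chr1:72711290-72713813, GRCm38) was at 60.1, 35.9 and 32.03 FPKM in Ctrl and 21.4, 19.0 and 13.9 FPKM in Gsk3sKO. Every Ctrl library was above every Gsk3sKO library. The log2 difference was −1.16 (SE 0.26, unadjusted limma p = 0.00186, adjusted p = 0.426, exact permutation p = 0.1, the smallest that 3 against 3 libraries allow). *Rpl37* (ENSMUSG00000041841, chr15:5116645-5119140) was at 416, 279 and 112 FPKM in Ctrl and 113, 106 and 98.4 FPKM in Gsk3sKO. The Ctrl libraries spread widely here, and the lowest of them fell just under the highest Gsk3sKO library, with a log2 difference of −1.15 (SE 0.40, unadjusted limma p = 0.021, adjusted p = 0.688, exact permutation p = 0.2). Its unadjusted call was lost without Ctrl replicate 1 (−0.74), Ctrl replicate 2 (−1.02), Gsk3sKO replicate 2 (−1.15) or Gsk3sKO replicate 3 (−1.10). Leaving out its lowest Ctrl library, replicate 3, gave an adjusted limma p of 0.037, in a range of 0.037 to 0.973 over the alternatives.

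*Rpl11* binds 5S ribosomal RNA and, outside the ribosome, the p53 ligase Mdm2. *Rpl11* (ENSMUSG00000059291, chr4:136028265-136053428) was at 116, 75.04 and 60.9 FPKM in Ctrl and 57.7, 46.2 and 43.0 FPKM in Gsk3sKO. The groups did not overlap, with a log2 difference of −0.73 (SE 0.24, unadjusted limma p = 0.0149, adjusted p = 0.688, exact permutation p = 0.1). Without Gsk3sKO replicate 3 it was −0.64 and no longer under the unadjusted threshold. *Rpl10* encodes a protein near the peptidyl transferase centre that joins late in the making of the subunit. *Rpl10* (ENSMUSG00000008682, chrX:74270812-74273135) was at 156, 63.8 and 54.3 FPKM in Ctrl and 52.9, 47.4 and 37.8 FPKM in Gsk3sKO. The groups were apart by little, and Ctrl replicate 1 was far above the rest, with a log2 difference of −0.83 (SE 0.36, unadjusted limma p = 0.0488, adjusted p = 0.755, exact permutation p = 0.1). It was −0.36 without Ctrl replicate 1, and −0.93, −0.85 and −0.69 without Gsk3sKO replicate 1, 2 or 3, each past the unadjusted threshold no longer.

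*Rpl29* encodes a small protein on the surface of the large subunit that also binds heparin. *Rpl29* (ENSMUSG00000048758, chr9:106429454-106431568) was at 346, 226 and 173 FPKM in Ctrl and 154, 158 and 159 FPKM in Gsk3sKO. The Gsk3sKO libraries lay almost on one value, all below Ctrl, with a log2 difference of −0.60 (SE 0.23, unadjusted limma p = 0.0307, adjusted p = 0.737, exact permutation p = 0.1). The unadjusted call of *Rpl29* was lost with any library other than Ctrl replicate 3 left out, and the difference was then −0.33 without Ctrl replicate 1 and −0.64 to −0.59 without the others. *Rpl32* (ENSMUSG00000057841, chr6:115805505-115808747) was at 109, 77.3 and 82.4 FPKM in Ctrl and 65.4, 65.2 and 64.1 FPKM in Gsk3sKO, with no overlap. Its log2 difference was −0.44 (SE 0.15, unadjusted limma p = 0.02, adjusted p = 0.688, exact permutation p = 0.1), and the unadjusted call held whichever library was left out.

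Of the small subunit genes, 1 was lower and 1 higher by the same test. *Rps23* encodes a protein of the decoding centre. *Rps23* (ENSMUSG00000049517, chr13:90922958-90924950), the small subunit gene with the highest level, was at 417, 337 and 238 FPKM in Ctrl and 251, 233 and 201 FPKM in Gsk3sKO. The lowest Ctrl library lay below the highest Gsk3sKO library. The log2 difference was −0.50 (SE 0.21, unadjusted limma p = 0.0433, adjusted p = 0.750, exact permutation p = 0.2). The unadjusted call of *Rps23* was lost with any library other than Ctrl replicate 3 left out, with differences from −0.57 without Gsk3sKO replicate 1 to −0.31 without Ctrl replicate 1. *Rps27* encodes a zinc-binding protein of the small subunit. *Rps27* (ENSMUSG00000090733, chr3:90212522-90213651) was at 94.4, 73.7 and 84.7 FPKM in Ctrl and 138, 117 and 117 FPKM in Gsk3sKO. It ran against most members, with every Gsk3sKO library above every Ctrl library. The log2 difference was 0.55 (SE 0.14, unadjusted limma p = 0.00448, adjusted p = 0.582, exact permutation p = 0.1).

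**Figure D3:**
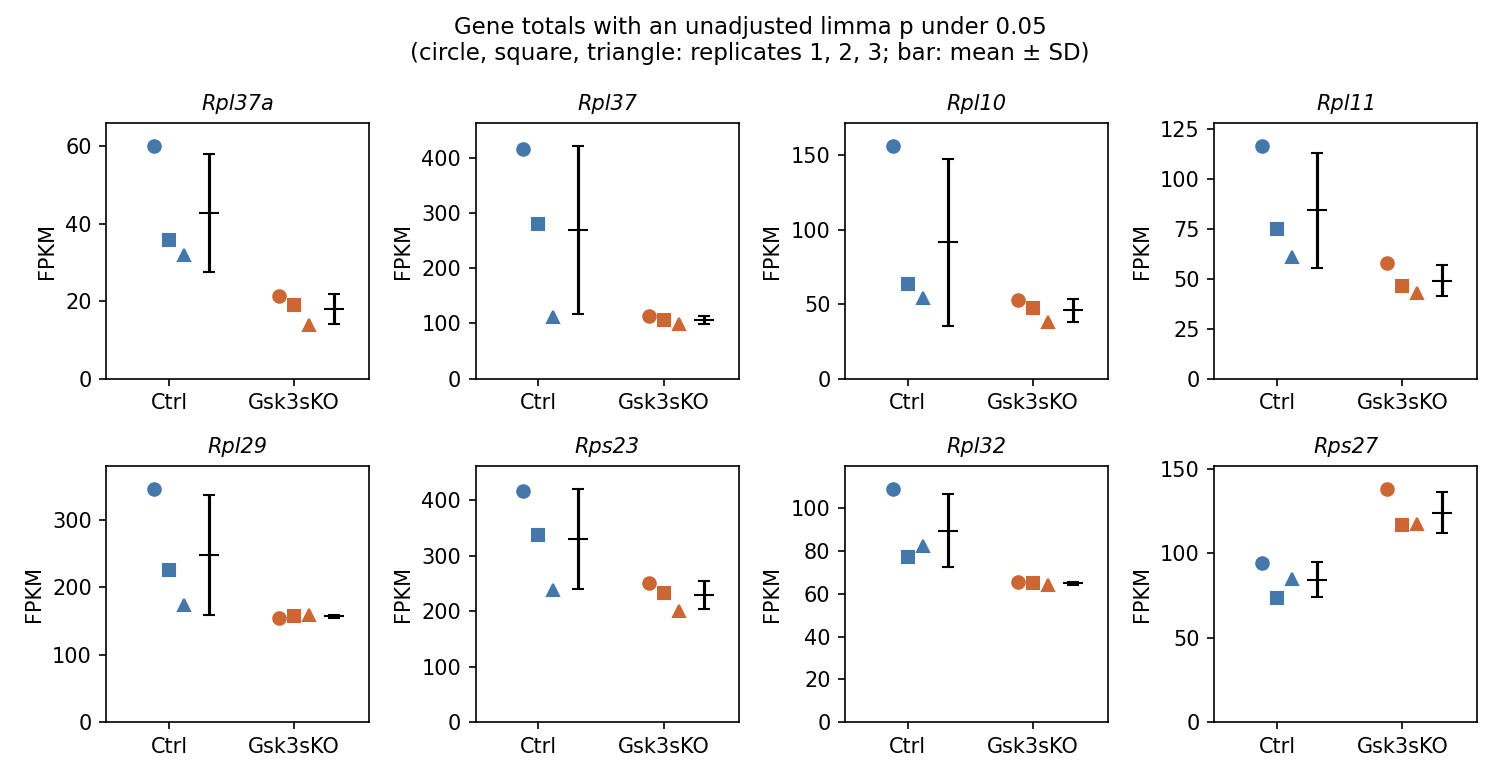
Each panel plots the FPKM of a gene total in the 3 Ctrl and 3 Gsk3sKO libraries with the mean ± SD, for the 8 members with an unadjusted limma p under 0.05. The groups overlap for *Rpl37* and *Rps23* and are apart for the other genes. The gap runs from 32.03 down to 21.4 FPKM for *Rpl37a* and from 94.4 up to 117 FPKM for *Rps27*. In the 7 lower genes Ctrl replicate 1 (circle) is the highest value.

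Over the 17 alternative settings, which cover scaling, filter, pseudocount, variance model, pairing, transcript length and each library left out, *Rpl37a* and *Rps27* had an unadjusted limma p under 0.05 in all 17. *Rpl11* did so in 15, *Rpl32* in 13, *Rpl37* in 11, *Rpl29* in 7, *Rps23* in 6 and *Rpl10* in 4. The sign of the difference was kept by all 8 genes in each setting.

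The members with the highest levels did not move as one. After *Rplp1*, the large subunit genes highest in Ctrl were *Rpl19*, *Rpl26*, *Rpl13a* and *Rpl37*. *Rpl19* was at 420, 308 and 402 FPKM in Ctrl and 401, 465 and 409 FPKM in Gsk3sKO (log2 difference 0.18, SE 0.16). *Rpl26* was at 327, 274 and 321 FPKM against 304, 336 and 400 FPKM (0.17, SE 0.15), and *Rpl13a*, whose protein is also known from translational silencing in immune cells, at 315, 310 and 286 FPKM against 364, 331 and 310 FPKM (0.14, SE 0.13). All of these overlapped between the groups and lay on the other side of no change from *Rpl37*. Of the small subunit genes, *Rps24*, *Rps6* and *Rpsa* were among the highest beside *Rps23*. *Rps6* encodes the protein that S6 kinase phosphorylates downstream of mTORC1 and was at 176, 175 and 193 FPKM in Ctrl and 207, 202 and 159 FPKM in Gsk3sKO (0.05, SE 0.14). *Rpsa*, whose protein is also described as a laminin receptor, was at 178, 132 and 154 FPKM against 172, 168 and 161 FPKM (0.12, SE 0.14). *Rps24* (0.16, SE 0.14) overlapped between the groups too.

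Besides *Rps27*, the largest rises on the log2 scale were those of *Rpl22* (0.36), *Rpl21* (0.33), *Rpl34* (0.26) and *Rpl9* (0.25), and none of the 4 passed the unadjusted threshold. *Rpl21* was at 148, 106 and 121 FPKM in Ctrl and 146, 160 and 163 FPKM in Gsk3sKO (SE 0.15, unadjusted limma p = 0.0595, adjusted p = 0.767, exact permutation p = 0.2). Its overlap came from Ctrl replicate 1, without which the log2 difference of *Rpl21* was 0.46 and its unadjusted limma test passed. *Rpl34* likewise passed only without Ctrl replicate 1 among the libraries left out (log2 difference 0.39).

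The stalk of the large subunit, formed by Rplp0 and dimers of Rplp1 and Rplp2, recruits the GTPases that drive translation. *Rplp0* was at 82.0, 111 and 106 FPKM in Ctrl and 98.2, 95.5 and 60.3 FPKM in Gsk3sKO (log2 difference −0.26, SE 0.21, limma adjusted p = 0.864). *Rplp1* was at 433, 460 and 399 FPKM against 416, 353 and 283 FPKM (−0.31, SE 0.17, limma adjusted p = 0.792), and passed the unadjusted test at −0.44 without Gsk3sKO replicate 1. *Rplp2* was at 112, 111 and 105 FPKM against 110, 106 and 111 FPKM (−0.00, SE 0.11). All 3 overlapped between the groups, and *Rplp2* varied least of the named members across the 6 libraries.

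*Rpl22* carries the tag, and its deposited values depended on which transcript the reads were given to. The total was at 38.2, 39.7 and 47.7 FPKM in Ctrl and 36.6, 89.6 and 47.7 FPKM in Gsk3sKO (log2 difference 0.36, SE 0.29, limma adjusted p = 0.861). The difference was 0.00 without Gsk3sKO replicate 2, and it passed the unadjusted test at 0.64 without Gsk3sKO replicate 1. In the high library 86.9 of the 89.6 FPKM belonged to a non-coding transcript of the gene, ENSMUST00000142735, which was at 7.23, 2.99 and 28.0 FPKM in Ctrl and 14.3 and 15.4 FPKM in the other Gsk3sKO libraries. The coding transcript ENSMUST00000139685 was at 23.8, 18.6 and 4.09 FPKM in Ctrl and 10.6, 0.41 and 11.5 FPKM in Gsk3sKO. Summed over protein-coding transcripts only, the log2 difference of *Rpl22* turned to −1.07. The table does not tell the tagged from the untagged form of *Rpl22*.

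Most paralogs were low beside their parents. *Rpl22l1*, which can take the place of *Rpl22* in the ribosome, was at 24.5, 18.2 and 12.8 FPKM in Ctrl and 27.1, 7.62 and 3.67 FPKM in Gsk3sKO. Gsk3sKO replicate 1 was the highest and the other Gsk3sKO libraries the lowest of all 6. The log2 difference was −0.86 (SE 0.58, limma adjusted p = 0.824), and it passed the unadjusted test at −1.57 without Gsk3sKO replicate 1. *Rps27l*, a p53-responsive paralog of *Rps27*, was at 0, 2.94 and 1.53 FPKM in Ctrl and 2.87, 0 and 2.18 FPKM in Gsk3sKO, listed at 0 in 1 library of each group, so no change could be read for it beside that of *Rps27*. *Rpl36al* was at 58.3, 63.9 and 45.5 FPKM in Ctrl and 61.8, 47.7 and 51.9 FPKM in Gsk3sKO (−0.05), not far from its X-linked parent *Rpl36a* at 67.0, 72.7 and 72.6 against 91.0, 63.2 and 64.8 FPKM (0.03). *Rpl7l1* was at 14.0 to 18.1 FPKM in Ctrl and 10.9 to 19.5 FPKM in Gsk3sKO (−0.22), and *Rpl7* at 114 to 127 and 88.2 to 117 FPKM (−0.30, limma adjusted p = 0.780), past the unadjusted threshold at −0.42 without Gsk3sKO replicate 1. *Rpl3* had a log2 difference of 0.05 and *Rpl39* of −0.26, with overlapping groups.

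*Rps4x* and its intronless copy *Rps4l* both lay lower in every Gsk3sKO library. *Rps4x*, an X-linked gene that escapes X inactivation in humans, was at 79.97, 83.1 and 82.1 FPKM in Ctrl and 70.7, 79.0 and 43.3 FPKM in Gsk3sKO (log2 difference −0.39, SE 0.21, unadjusted limma p = 0.109, exact permutation p = 0.1), and without Gsk3sKO replicate 2 it passed at −0.55. *Rps4l* was at 19.6, 19.6 and 17.8 FPKM against 17.5, 10.7 and 14.4 FPKM (−0.42, SE 0.20, unadjusted limma p = 0.0648, exact permutation p = 0.1), and without Gsk3sKO replicate 1 it passed at −0.58. *Rps4l* is annotated as a transcribed processed pseudogene and *Rpl6l*, the lowest large subunit gene tested (6.58 to 7.73 FPKM in Ctrl, 3.34 to 8.26 FPKM in Gsk3sKO), as a processed pseudogene. Reads of such near copies can be divided between loci, so these values are uncertain. The table also listed 265 loci named as pseudogenes of 55 members, whose summed FPKM was 5.84% to 6.37% of the members' sum in each library.

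At the level of transcripts, 176 transcripts of the 83 genes had a mean of at least 1 FPKM, and 13 (7.39%) had an unadjusted limma p under 0.05, 8 lower and 5 higher in Gsk3sKO, beside 5.56% of all transcripts tested (3.75% lower, 1.81% higher). With the further demand of a change above 2-fold, 10 (5.68%) were left, beside 4.33% of all. None passed after adjustment (smallest adjusted limma p 0.679). The count was 24 without Ctrl replicate 3 and 23 without Gsk3sKO replicate 1. In these settings the share of all gene totals called was 7.12% and 9.13%, beside 6.56% with all libraries. The matching share of all transcripts is not given here, so these counts are not a result about the members. Of the 13, 11 are annotated as protein-coding. The fall of *Rpl10* lay in ENSMUST00000008826, at 154, 61.4 and 49.2 FPKM in Ctrl and 40.4, 26.3 and 34.5 FPKM in Gsk3sKO (log2 difference −1.20), while ENSMUST00000074085 of the same gene went from 1.95, 1.93 and 2.59 to 10.2, 19.96 and 2.75 FPKM (1.61). How the reads were divided between these overlapping transcripts cannot be read from the table. Of *Rps27*, transcript ENSMUST00000170122 was at 86.8, 61.4 and 40.1 FPKM against 132, 107 and 110 FPKM (0.94), while ENSMUST00000196205 was at 0.15, 1.9 and 40.2 FPKM against 0.08, 0.30 and 0.26 FPKM (−2.09, not past the threshold) and held about as much of Ctrl replicate 3 as the first.

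The transcripts described next were past both limits in genes whose totals did not pass. ENSMUST00000136174 of *Rps6*, a non-coding transcript, was at 12.6, 4.34 and 5.08 FPKM in Ctrl and 20.6, 13.2 and 55.9 FPKM in Gsk3sKO (1.77), and with protein-coding transcripts only the *Rps6* total had a log2 difference of −0.19. ENSMUST00000196202 of *Rpl34* was at 15.1, 14.5 and 46.8 FPKM against 31.97, 79.9 and 77.7 FPKM (1.38), with overlap. In the other direction, ENSMUST00000107249 of *Rpl27* was at 6.80, 15.4 and 7.17 FPKM against 5.21, 2.12 and 0.83 FPKM (−1.63), and ENSMUST00000118551 of *Rps14* at 4.31, 3.99 and 5.45 FPKM against 3.55, 0 and 0 FPKM (−1.74). ENSMUST00000106004 of *Rplp2*, at 1.05, 9.63 and 5.15 FPKM in Ctrl, was listed at 0 in all Gsk3sKO libraries. Protein-coding transcripts carried 95.7% to 97.6% of the members' FPKM in each library, and transcripts with a retained intron carried 1.12% to 2.28%, with overlapping groups.

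Some motifs at the start sites, which the name rule had not used, were more frequent among the members than among all promoters. A C followed by at least 4 bases that are C or T, on the sense strand and starting within 10 bases of the annotated start, was found in 53.9% of the 76 member promoters and in 30.7% of all 32851 RefSeq promoters. CTTCCG on either strand (CGGAAG), the core of the site that ETS factors bind, was in 60.5% of the member promoters and in 16.9% of all, within 250 bases before to 50 after the start. A sense CTTCCG holds a run of the first kind, so the motifs are not independent. TATAAA on the sense strand was in 7.89% of the member promoters and 8.32% of all. A gene counted as holding a motif when any of its promoters did. Of the tested members with a promoter, the 36 with the run at the start had a median log2 difference of −0.03. Of these, 2 had an unadjusted limma p under 0.05 (*Rps23* and *Rps27*). The 25 without the run had a median of −0.22, and 4 had such a p (*Rpl37a*, *Rpl37*, *Rpl10* and *Rpl11*). For CTTCCG the medians were −0.08 over 42 members with it and −0.21 over 19 without. Here 5 of those with it and 1 of those without had an unadjusted limma p under 0.05. Over all gene totals 6.56% had such a p. All gene totals were not split by motif, so the counts are not a result about the motifs. These are descriptions of matches, not of sites in use, and 65 of the 76 promoters run into an annotated transcript of the gene on the same strand.

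Short transcripts lay lower in Gsk3sKO over the whole table, and the members are short. Weighted by FPKM, the median transcript length was 782 bases for the 83 members and 2602 bases over the 12856 gene totals with a length. Under 700 bases, the 32 members had a median log2 difference of −0.15 and all 1186 gene totals −0.31. From 700 to 1000 bases it was −0.16 for 28 members and −0.17 for all 678, and above 1000 bases −0.11 for 23 members and −0.05 for all 10992 (class limits chosen after the values were seen). The value for all gene totals under 700 bases leaned on very short RNAs. In 20 classes of near equal size, the median over all gene totals was −0.55 up to 415 bases, where 6 members lay, −0.13 from there to 750 bases (33 members) and −0.14 from 750 to 1015 bases (23 members), so in the classes that hold most members it was close to the members' own. With the trend of each library along transcript length taken out, the medians turned to 0.01 for the large and 0.04 for the small subunit genes, 41 members were lower and 42 higher in Gsk3sKO, and 4 had an unadjusted limma p under 0.05 in the lower and 6 in the higher direction (12% of members, beside 6.14% of all gene totals). The source of the length trend was not tested.

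**Figure D4:**
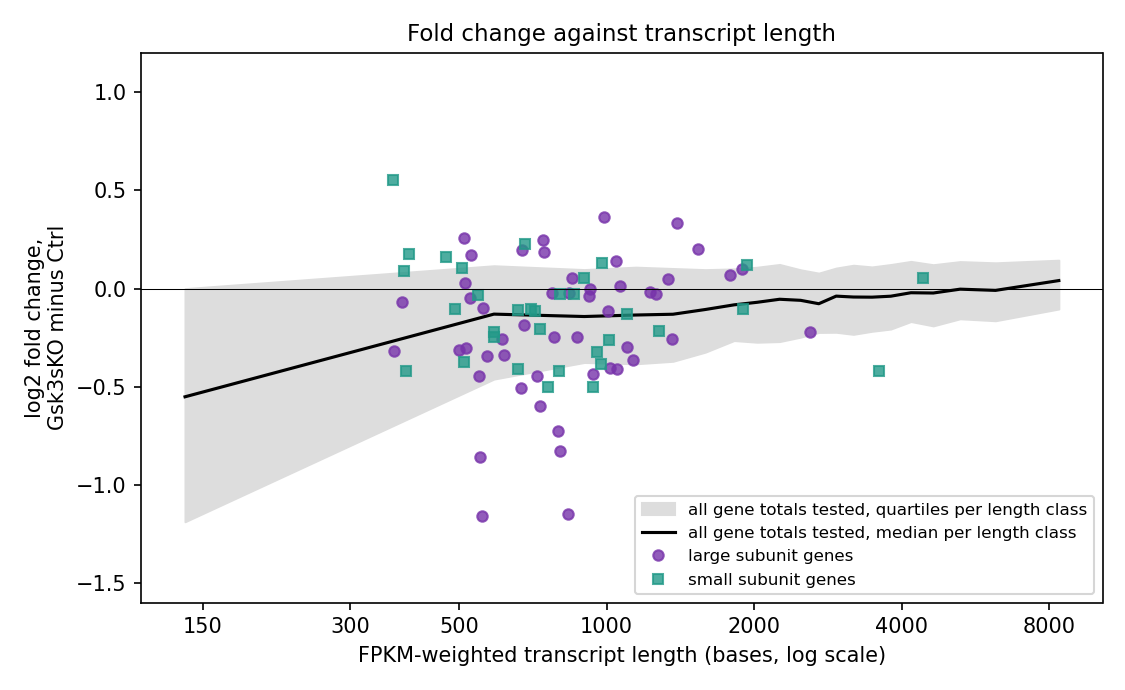
Log2 difference (Gsk3sKO minus Ctrl, log2(FPKM + 1) scale) of each tested member against its FPKM-weighted transcript length in bases on a log axis, with the median (line) and quartiles (band) of all gene totals in 20 length classes. Most members lie under 1000 bases, where the line for all genes is below 0 as well, with medians of −0.13 and −0.14 in the classes that hold 33 and 23 members.

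The genes around the ribosome were tested in the same way. Ribosomal proteins with other names did not pass the unadjusted threshold. *Fau*, which encodes a small subunit protein fused to a ubiquitin-like one, had a log2 difference of 0.08. *Rps27a*, which encodes a ubiquitin fusion, was at 119, 84.3 and 83.9 FPKM in Ctrl and 103, 84.2 and 78.4 FPKM in Gsk3sKO (−0.10). *Rack1*, the scaffold on the small subunit, was at 59.3, 66.0 and 55.9 FPKM against 44.4, 60.1 and 28.6 FPKM (−0.50, SE 0.25, limma adjusted p = 0.780), with overlap. Of 20 other TOP mRNAs, mainly translation factors, 0 passed in either direction, with a median log2 difference of 0.01. Of 15 tested regulators of ribosomal protein synthesis and ribosome quality control, 0 passed, among them *Larp1*, the protein that binds TOP mRNAs (−0.02). Of all gene totals 6.56% passed, and at that share lists this short hold few calls, so these counts are not a result about the lists.

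Of 62 tested ribosome biogenesis genes, 5 were lower and 1 higher in Gsk3sKO by the unadjusted limma test (9.68%, beside 6.56% of all gene totals), with a median log2 difference of −0.01. The lower genes were *Rrp9* of the U3 small nucleolar particle (9.75, 7.52 and 6.88 FPKM in Ctrl, 4.84, 2.99 and 3.29 FPKM in Gsk3sKO, log2 difference −0.95), *Bop1* of large subunit maturation (−0.74), the RNA polymerase I subunits *Polr1b* (4.79, 3.81 and 5.15 against 2.63, 1.01 and 2.60 FPKM, −0.90) and *Polr1a* (−0.54), and *Nop10* of the H/ACA particles (−0.85). *Nop56* of the box C/D particles was higher (34.1, 33.7 and 37.9 against 40.9, 49.2 and 46.6 FPKM, 0.36). None passed after adjustment, and the smallest adjusted limma p of the 6 was 0.570.

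The target and the cell make-up of the libraries could bear on these values, which was not tested. *Gsk3b* was at 35.6, 53.8 and 56.5 FPKM in Ctrl and 36.9, 37.0 and 33.6 FPKM in Gsk3sKO (log2 difference −0.40, SE 0.19, limma adjusted p = 0.773), so Ctrl replicate 1, the library with the highest ribosomal protein levels, was at the Gsk3sKO level of the target. An edit by Cas9 need not lower the mRNA. *Drd2* was at 1.58, 6.02 and 14.1 FPKM in Ctrl and 8.32, 5.96 and 7.28 FPKM in Gsk3sKO, lowest in Ctrl replicate 1 as well. Markers of other cells were present in both groups. Their counts are by the unadjusted limma test, which 6.56% of all gene totals passed (5.2% lower). Of 10 oligodendrocyte markers 4 were lower in Gsk3sKO (*Mog*, *Mag*, *Cnp* and *Cldn11*; summed 142 to 209 FPKM in Ctrl and 154 to 194 FPKM in Gsk3sKO over the list), and of 8 tested microglia markers 2 were (*C1qa* and *C1qb*; 42.1 to 54.1 and 31.6 to 41.8 FPKM over the list). Of 10 astrocyte (206 to 235 and 206 to 254 FPKM), 10 endothelial (23.4 to 99.0 and 34.2 to 85.6 FPKM) and 10 neuron markers (2739 to 2888 and 2746 to 2929 FPKM), 0 passed, and no marker of these lists was at 0 in all libraries. The part of other cells in the ribosomal protein levels was not tested.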

How the data were processed

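The authors deposited an FPKM value for each of 115220 transcripts in each of 6 libraries (stranded total RNA kit, RiboTag immunoprecipitation). The submitters' processing notes name HISAT2 2.1.0, SAMtools 1.9, StringTie 1.3.4d and the GRCm38 build, with settings not given in the sources used here. The table also holds the authors' fold change, p-value and q-value per transcript, which were not used. All 6 libraries were used, grouped by their titles, and the number of per-library value columns not used was 0.

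No read counts were given. The spacing of low values put the depth at about 45.1, 31.9 and 23.5 M reads in Ctrl replicates 1 to 3 and 41.3, 28.8 and 30.1 M in Gsk3sKO, but only 11.5% to 25.0% of these values lay within 0.01 read of a whole number, so no count test was run. An exact 0 can be a failed estimate. The number of transcripts above 0 ran from 40787 to 55841.

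FPKM was summed by gene, log2(FPKM + 1) was taken and gene totals with a mean of at least 1 FPKM were tested with limma 3.58.1 (eBayes with a trend, R 4.3.3), 2-sided and without covariates, with Benjamini-Hochberg adjustment over all 12874. Transcripts were tested likewise. Differences are on the log2(FPKM + 1) scale, which understates those of low genes. Single genes had a 2-sided exact permutation test, whose smallest p is 0.1. Annotation and lengths came from GENCODE M21 (114237 transcripts matched, 983 did not, and 18 gene totals had no length). Tables and figures used Python 3.11.15, pandas 2.3.3, numpy 2.4.6, scipy 1.17.1 and matplotlib 3.10.9.

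The members and lists were chosen with earlier results of these data known. Named were members with an unadjusted p under 0.05, the 5 largest rises and falls, the 5 highest and the lowest of each subunit, the paralogs with their parents, *Rpl22*, *Rpsa*, *Rps6*, *Rpl10*, *Rps27a* and the stalk genes, transcripts with an unadjusted p under 0.05 and a change above 2-fold, and genes of the other lists with an unadjusted p under 0.05. *Rps12l1*, *Drd2*, *Fau*, *Rack1*, *Larp1* and *Gsk3b* were named beside these. Some results are not reported here. Alternatives were other scalings, filters, pseudocounts and variance models, protein-coding transcripts only, the removal of a lowess trend with length (span 0.3), a replicate block, and each library left out.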

Additional observations from a re-analysis of the deposited data

How the results depend on the processing

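The 8 members with an unadjusted p under 0.05 (7 lower, 1 higher) became 4 (3 lower) without a filter, with the median ratio and without a variance trend, and 3 (2 lower) without moderation of the variances, or 4.65%, 4.82%, 4.82% and 3.61% of members beside 4.2%, 6.24%, 6.59% and 5.4% of all gene totals. Calls in the higher direction were 2 with scaling to protein-coding FPKM and with protein-coding transcripts only. With the length trend removed, 4 were lower and 6 higher, and the medians were 0.00544 (large) and 0.0400 (small). Leaving out each library gave 4 to 16 calls (4.82% to 19.3%, beside 4.46% to 9.13% of all gene totals), 3 to 15 lower and 1 to 3 higher. The medians were then −0.20 to −0.0160 (large) and −0.21 to −0.0181 (small). Called transcripts numbered 9 to 24, with no matching share of all transcripts given here. Nothing in the labels tells whether same-numbered libraries were paired. Their deviations correlated at −0.03, −0.01 and −0.08 over all gene totals, beside −0.03 to 0.05 for libraries with different numbers. With 3 libraries per group such values cannot settle whether there was a pairing. A replicate block gave 13 calls (12 lower, 1 higher; 15.7% beside 6.38% of all gene totals), and the block with the length trend removed gave 4 lower, 6 higher (12% beside 5.93%) and the same medians as the trend alone. Of 558 pairs of a named gene and a setting, 469 kept direction and side of the threshold, 46 lost and 17 gained an unadjusted p under 0.05, and 26 changed sign, in genes near no change or with unsteady libraries. *Rpl22* was −1.07 and *Rps6* −0.19 with protein-coding transcripts only. *Rplp2* was 0.0538 with the median ratio, 0.0279 with protein-coding FPKM scaling, 0.00423 with protein-coding transcripts only and 0.14 with the length trend removed, also with the block. By the median ratio *Rpl36al* was 0.00833, and with the length trend removed, with or without the block, it was 0.14 and *Rps27a* 0.0524. With each library left out, *Rpl3* ran from −0.0216 to 0.118, *Rpl36a* from −0.141 to 0.119, *Rpl36al* from −0.186 to 0.0539, *Rpl6l* from −0.456 to 0.0909, *Rplp2* from −0.0298 to 0.0151, *Rps27a* from −0.213 to 0.0621, *Rps27l* from −0.450 to 0.707 and *Rps6* from −0.0169 to 0.174. The causes of these moves were not tested beyond what each setting changes.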
